A study of Homo sapiens with 36 samples.

Results

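A set of 9 genes of the NRF2 pathway and the antioxidant response was followed through bulk RNA-seq of HEK293 cells: NFE2L2, KEAP1, MAFG, HMOX1, NQO1, OSGIN1, SRXN1, TXNRD1 and TXN. They were taken by gene name from a count table of 36601 genes, and were chosen with earlier results of these data known. All 9 were found in the table, and all 9 were among the 14892 genes that passed the low-count filter and were tested. The series fused HaloTag, a protein tag of bacterial origin that binds its ligands covalently, to endogenous proteins, and asked which stress responses follow when a hydrophobic ligand binds the tag. HEK293 is an established human line from embryonic kidney. Clones numbered 4 and 5 were each grown with the vehicle DMSO, the control, or with the hydrophobic HaloTag ligand HyT36 at 25 µM, which made 4 groups of 3 libraries, and cells of all 4 groups carry the tag. Each line is a single clone, so a difference between the lines cannot be told apart from a difference between any 2 clones. The libraries of clone 4 carried 2318 to 3504 reads of a guide named for HDAC2, of which clone 5 libraries had 2 to 18. Conversely, the clone 5 libraries carried 2623 to 3806 reads of a guide named for IGF1R, of which those of clone 4 had 5 to 13. Not given in the sources used here are the tagged protein of each clone and whether the bulk cultures had the 2 or the 12 h exposure that the protocols name. None of the 12 libraries came from untagged cells, so an effect of the ligand alone and one that needs the tag cannot be told apart. The other 24 samples of the series were not analysed here.

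Gene counts per library ranged from 22853946 to 28635511, and mitochondrial transcripts made up 1.76 to 2.20% of them. Of the genes used as HEK293 markers, LIN28B (128 to 159.7 CPM), VIM (151 to 232 CPM) and PAX2 (12.1 to 14.8 CPM) were present in every library, EYA1 was low (0.146 to 1.69 CPM), and the neurofilament genes NEFM and NEFL stayed at or below 0.126 CPM. CPM relate the reads of a gene to all gene reads of its library, after scaling for composition. The libraries split by epithelial transcripts: the summed level of 12 epithelial genes was low in 6 of them (3.87 to 6.32 CPM) and high in the remaining 6 (53.9 to 106 CPM). The low libraries were replicates 2 and 3 of clone 4 with DMSO, replicate 1 of clone 4 with HyT36 and all 3 of clone 5 with HyT36. In clone 5 the split therefore coincided with the treatment. KRT19 spanned 0.0418 to 69.9 CPM, and EPCAM, GRHL2 and RAB25 were at 0 in at least 1 library. The 6 fibroblast genes summed to 5.05 to 8.92 CPM and the 6 blood cell genes to 0.500 to 1.86 CPM, with HBB and CD3E at 0 throughout.

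NRF2, the protein of NFE2L2, is a transcription factor that KEAP1 holds in the cytoplasm and hands to a CUL3 ubiquitin ligase for degradation. Oxidants and electrophiles modify cysteines of KEAP1, NRF2 then escapes degradation, enters the nucleus, pairs with a small MAF protein such as MAFG and binds antioxidant response elements in its targets. The targets make glutathione and NADPH, reduce thioredoxin, handle haem and iron, and detoxify quinones. Because NRF2 is controlled mainly as a protein, its transcript need not follow its activity.

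The antioxidant response element, the DNA that NRF2 and small MAF proteins read, was searched for as the letters TGACNNNGC on both strands of RefSeq promoter windows (GRCh38.p14). A window held 300 bases, 250 before the start and 50 after it. The start base itself is counted as the first base after the start. There were 11 windows for 8 of the 9 genes, and none for HMOX1. The letters stood in 3 of the 11 windows (27.3%), those of the downstream start of KEAP1 and of both starts of TXNRD1, beside 4687 of 35116 windows over all genes (13.3%). The window of the upstream start of KEAP1, at the outer end of the gene, and the windows of NFE2L2, MAFG, NQO1, SRXN1, TXN and OSGIN1 lacked these letters, which says nothing about sites outside the window. The OSGIN1 window held the AP-1 site TGANTCA, as did 7.71% of all windows, and this match overlapped no antioxidant response element match. TGATGNAA, the letters of the CARE element read by ATF4, and GAANNTTC, those of a heat shock element, stood in none of the 11 windows and in 3.62% and 6.77% of all windows. The sites are shown because they mark which of the genes carry the NRF2 letters close to an annotated start; capitals mark the match, with 10 bases on each side, 5′ to 3′ on the strand of the gene.
KEAP1, downstream start, chr19:10502807-10502835, minus strand, 54 to 46 bases before that start: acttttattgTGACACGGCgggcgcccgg
KEAP1, downstream start, chr19:10502784-10502812, minus strand, 31 to 23 bases before that start, match on the other strand: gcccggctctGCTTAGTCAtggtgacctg
TXNRD1, chr12:104215670-104215698, plus strand, 99 to 91 bases before the start: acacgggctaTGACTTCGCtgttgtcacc
TXNRD1, chr12:104215761-104215789, plus strand, from 8 bases before the start to the first base after it, match on the other strand: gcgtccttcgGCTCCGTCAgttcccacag
TXNRD1, downstream start, chr12:104286920-104286948, plus strand, 102 to 94 bases before that start, match on the other strand: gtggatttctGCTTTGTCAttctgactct
OSGIN1, chr16:83953133-83953159, plus strand, AP-1 letters 97 to 91 bases before the start: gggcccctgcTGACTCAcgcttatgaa

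Of these 9 transcripts few passed the test for a response to HyT36. In clone 4 none of the 9 passed the test, and in clone 5 MAFG rose 1.24-fold and SRXN1 fell 1.13-fold. With both clones averaged, MAFG rose and OSGIN1 fell. In clone 4, 0 of 9 were called at an adjusted p under 0.05 in edgeR's quasi-likelihood test with Benjamini-Hochberg adjustment over all genes tested, beside 830 of 14892 genes (5.57%, 2.21% higher and 3.36% lower). DESeq2 and limma-voom called 0 as well, and 1 of the 9 (OSGIN1) had an unadjusted p under 0.05. In clone 5, 2 of 9 were called (22.2%), 1 higher and 1 lower, beside 1219 genes (8.19%, 3.35% higher and 4.83% lower). The median log2 fold change of the 9 genes was 0.03 in either clone, beside 0.0027 over all genes tested in clone 4 and -0.0045 in clone 5. Nothing in the labels states whether replicates came from separate cultures, so each p-value reflects the spread between these libraries, which may be technical. In bulk RNA, fewer cells of a kind and less RNA per cell cannot be told apart.

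**Figure D1:**
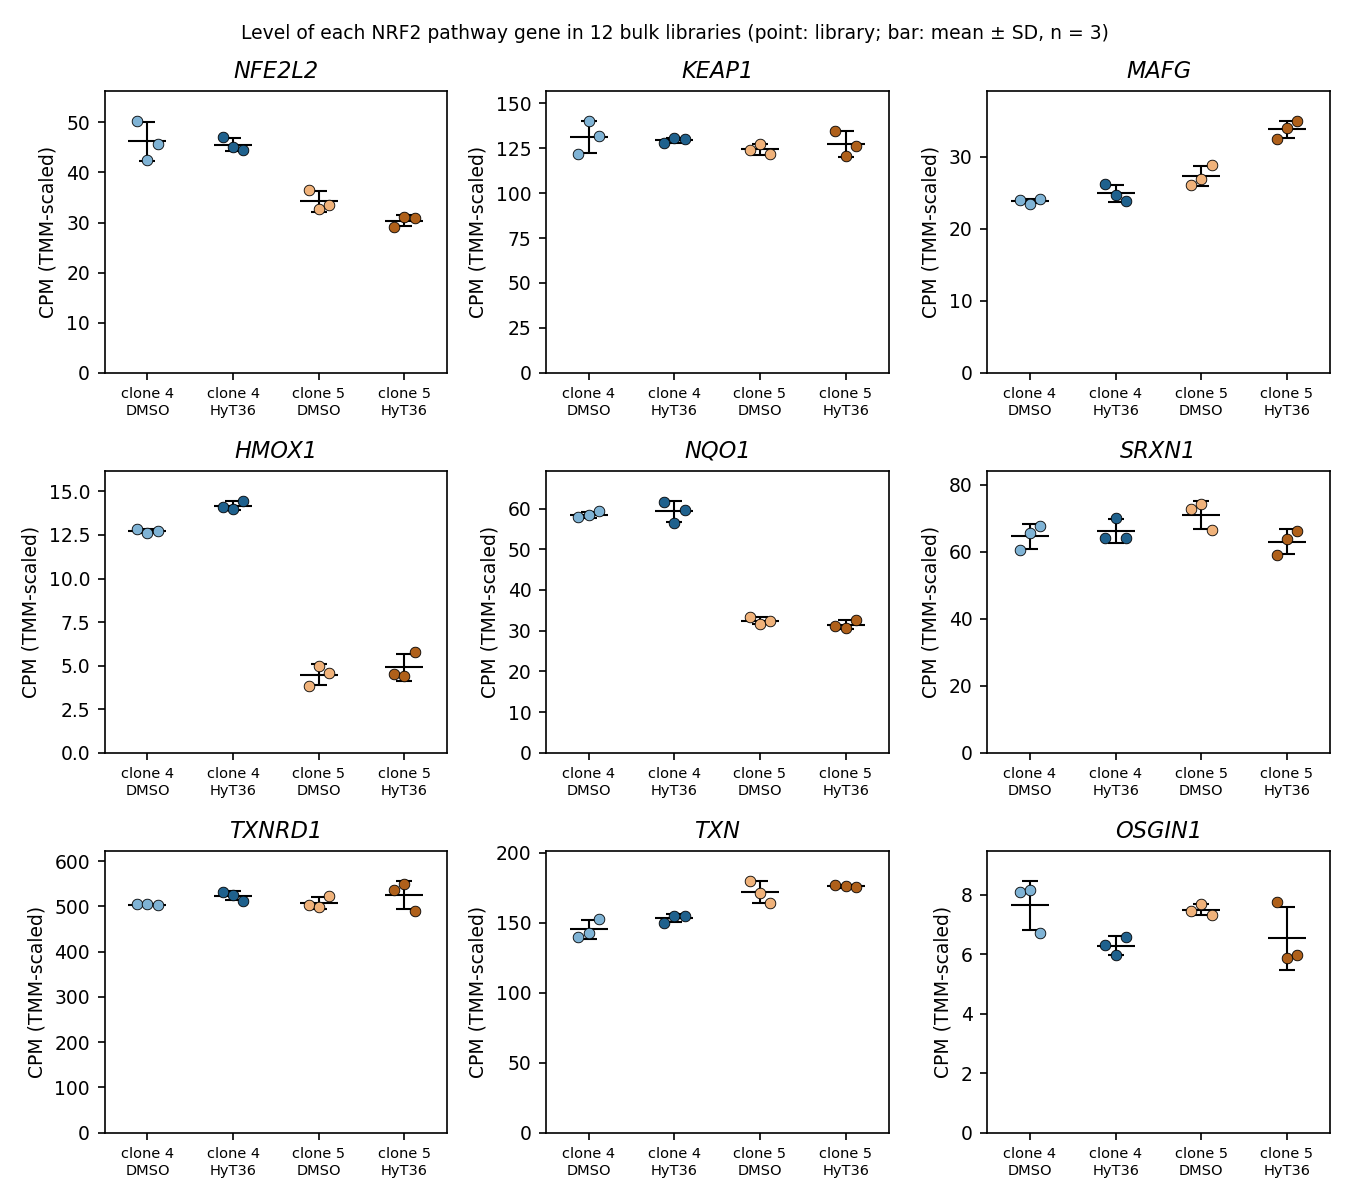
TMM-scaled CPM of each of the 9 genes in the 12 libraries, 1 panel per gene, with each axis on its own scale; points are single libraries and bars the group mean ± SD (n = 3). HMOX1, NQO1 and NFE2L2 sit lower in all 6 clone 5 libraries than in any clone 4 library, and within a clone the MAFG points of clone 5 with HyT36 (32.5 to 34.9 CPM) stand above those with DMSO (26.1 to 28.8 CPM).

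NFE2L2 (chr2:177230303-177264727, GRCh38.p14) stood at 50.3, 42.6 and 45.8 CPM in clone 4 with DMSO and at 47.1, 45.2 and 44.5 CPM with HyT36. In clone 5 it stood at 36.6, 32.7 and 33.4 CPM with DMSO and at 29.1, 31.1 and 30.9 CPM with HyT36. The clone 4 groups overlapped, whereas all 3 ligand libraries of clone 5 lay below all 3 vehicle libraries. Groups that did not overlap were common, at 23.5% of genes in clone 4 and 25.1% in clone 5. The fitted log2 fold change was -0.17 ± 0.06 in clone 5 (SE, 95% interval -0.30 to -0.05, edgeR adjusted p = 0.0815) and -0.02 in clone 4 (edgeR adjusted p = 0.906). The clone 5 value passed the threshold without replicate 1 of clone 4 with DMSO (edgeR adjusted p = 0.0489).

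KEAP1 (chr19:10486125-10503356), the cysteine sensor that targets NRF2 for degradation, varied little. Its 12 libraries lay between 120.5 and 140.02 CPM, with group means of 131 ± 9.04, 129.6 ± 1.38, 124 ± 2.97 and 127 ± 7.22 CPM (SD, n = 3) in clone 4 with DMSO, then with HyT36, and in clone 5 in the same order. Vehicle and ligand libraries overlapped in both clones, and the log2 fold change was -0.02 in clone 4 and 0.03 in clone 5 (edgeR adjusted p = 0.869 and 0.758).

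MAFG (chr17:81918270-81931244) encodes a small MAF protein, the DNA-binding partner of NRF2, and is itself a known NRF2 target. Clone 4 had 24.0, 23.5 and 24.1 CPM with DMSO and 26.2, 24.6 and 23.9 CPM with HyT36. Clone 5 had 26.1, 26.9 and 28.8 CPM with DMSO and 32.5, 33.9 and 34.9 CPM with HyT36. The clone 5 ligand libraries lay above every other library, and the clone 4 groups overlapped. The rise in clone 5 was 0.31 ± 0.06 on the log2 scale (SE, 95% interval 0.18 to 0.44, higher in 3 of 3 libraries, edgeR adjusted p = 0.00115), and the clone 4 value was 0.06 ± 0.07 (edgeR adjusted p = 0.666). In clone 5 the epithelial sum was low in all 3 ligand libraries and high in all 3 vehicle libraries, so the treatment and that split cannot be told apart there. In clone 4, where each treatment held both kinds, MAFG was 23.5, 24.1 and 26.2 CPM in the 3 low libraries and 23.9, 24.0 and 24.6 CPM in the 3 high ones. MAFG overlaps the antisense gene MAFG-AS1, and without a stated strand setting their reads cannot be told apart.

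Of the other small MAF genes, MAFK, another partner of NRF2, fell in both clones: from 18.6, 23.6 and 19.3 to 13.4, 14.3 and 13.8 CPM in clone 4 and from 21.6, 22.8 and 21.0 to 16.9, 16.1 and 17.6 CPM in clone 5. Neither pair of groups overlapped. Its log2 fold change was -0.57 ± 0.08 in clone 4 (edgeR adjusted p = 3.91e-06) and -0.37 ± 0.08 in clone 5 (edgeR adjusted p = 0.00186). MAFF was at 0.923 to 2.97 CPM and did not pass the test in either clone (edgeR adjusted p = 0.437 and 0.993).

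Of the classic readouts of NRF2 activity, HMOX1 (chr22:35381096-35394207) encodes haem oxygenase 1, which opens the haem ring. It had 12.9, 12.6 and 12.7 CPM in clone 4 with DMSO and 14.1, 13.98 and 14.5 CPM with HyT36. Clone 5 had 3.83, 5.001 and 4.59 CPM with DMSO and 4.52, 4.38 and 5.81 CPM with HyT36. The ligand libraries of clone 4 lay above the vehicle libraries, and those of clone 5 overlapped them. The log2 fold change was 0.16 ± 0.10 in clone 4 (95% interval -0.04 to 0.35, edgeR adjusted p = 0.405) and 0.13 ± 0.12 in clone 5 (edgeR adjusted p = 0.623), neither of which passed the test. HMOX1 had 92 to 392 reads per library, which limits the precision of its fold change.

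NQO1 (chr16:69709401-69726560), a quinone reductase that uses NAD(P)H, stood at 57.8, 58.4 and 59.3 CPM in clone 4 with DMSO and at 61.7, 56.5 and 59.7 CPM with HyT36. The clone 5 values were 33.4, 31.6 and 32.3 CPM with DMSO and 31.0, 30.7 and 32.7 CPM with HyT36. Treated and vehicle libraries overlapped in both clones. The log2 fold change was 0.02 in clone 4 and -0.04 in clone 5 (edgeR adjusted p = 0.883 and 0.733). NQO1 shares its locus with the antisense gene NQO1-AS1.

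OSGIN1 (chr16:83953240-83966332), an oxidative stress-induced growth inhibitor, had 8.08, 8.16 and 6.70 CPM in clone 4 with DMSO and 6.31, 5.96 and 6.58 CPM with HyT36. In clone 5 it had 7.45, 7.69 and 7.32 CPM with DMSO and 7.74, 5.86 and 5.98 CPM with HyT36. All ligand libraries of clone 4 were below its vehicle libraries, and in clone 5 replicate 1 with HyT36 was the highest of the 6. The log2 fold change was -0.28 ± 0.12 in clone 4 (95% interval -0.53 to -0.04, edgeR adjusted p = 0.178) and -0.20 ± 0.12 in clone 5 (edgeR adjusted p = 0.388). OSGIN1 overlaps NECAB2.

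The thioredoxin branch reduces oxidised cysteines with electrons from NADPH. SRXN1 (chr20:646615-653200), sulfiredoxin, which repairs overoxidised peroxiredoxins, had 60.6, 65.6 and 67.9 CPM in clone 4 with DMSO and 64.2, 70.3 and 64.1 CPM with HyT36. Clone 5 had 72.7, 74.3 and 66.4 CPM with DMSO and 58.9, 63.8 and 66.3 CPM with HyT36. The clone 5 groups stood apart by the gap between 66.4 and 66.3 CPM, and the clone 4 groups overlapped. SRXN1 fell by 0.17 ± 0.05 on the log2 scale in clone 5 (SE, lower in 3 of 3 libraries, edgeR adjusted p = 0.0359) and was at 0.03 in clone 4 (edgeR adjusted p = 0.81). The call was lost with DESeq2 (DESeq2 adjusted p = 0.0595) and without any of 5 single libraries: replicates 1 and 2 of clone 5 with DMSO, replicates 1 and 2 of clone 5 with HyT36, or replicate 3 of clone 4 with HyT36 (edgeR adjusted p = 0.136, 0.198, 0.259, 0.0819 and 0.0604). As for MAFG, the epithelial split of clone 5 cannot be told apart from the treatment; in clone 4 SRXN1 was 64.2, 65.6 and 67.9 CPM in the low libraries and 60.6, 64.1 and 70.3 CPM in the high ones.

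TXNRD1 (chr12:104215779-104350307), thioredoxin reductase 1, stood at 504, 505 and 502 CPM in clone 4 with DMSO and at 532, 525 and 512 CPM with HyT36. Clone 5 had 504, 498 and 523 CPM with DMSO and 536, 549.5 and 490.2 CPM with HyT36. The clone 4 groups did not overlap, and replicate 3 of clone 5 with HyT36 was the lowest library of all. The log2 fold change was 0.05 ± 0.04 in clone 4 and 0.05 in clone 5 (edgeR adjusted p = 0.468 and 0.539).

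TXN (chr9:110243810-110256507), thioredoxin itself, had 140.1, 143 and 153 CPM in clone 4 with DMSO and 150.1, 155 and 155 CPM with HyT36. Clone 5 had 180.1, 172 and 164 CPM with DMSO and 177, 176 and 175 CPM with HyT36. Vehicle and ligand libraries overlapped in both clones. The log2 fold change was 0.08 ± 0.04 in clone 4 and 0.04 in clone 5 (edgeR adjusted p = 0.303 and 0.695).

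**Figure D2:**
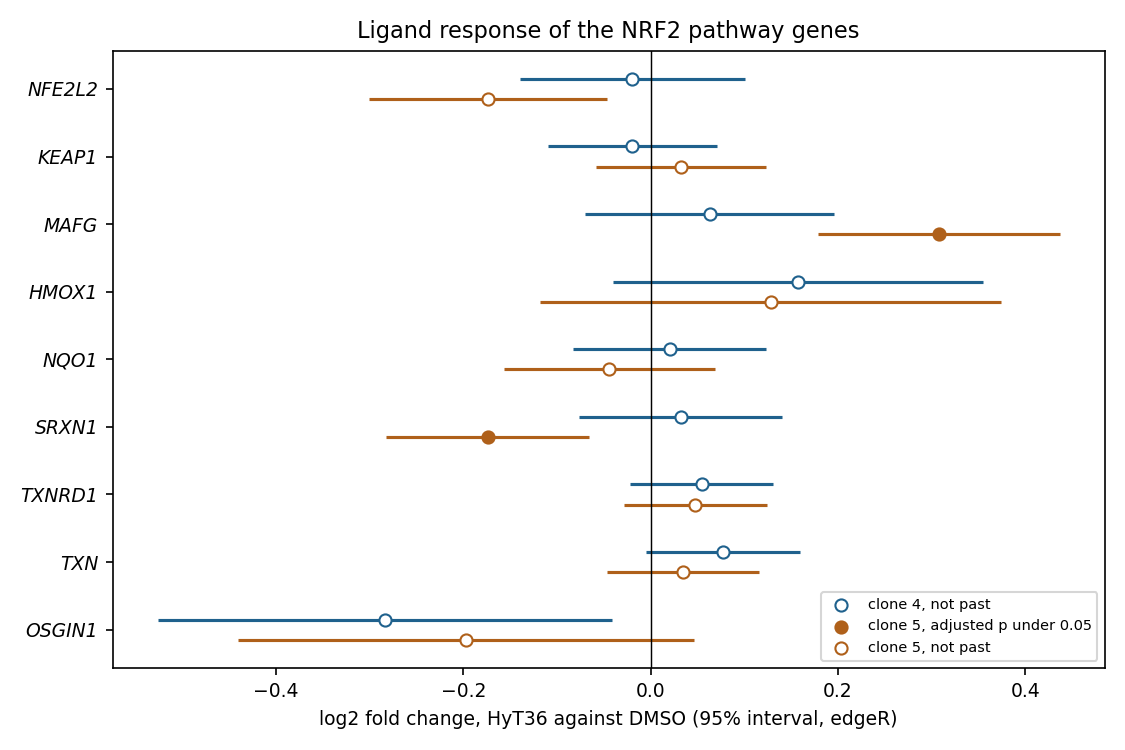
Fitted log2 fold change (HyT36 against DMSO) of each of the 9 genes in clone 4 and in clone 5, with 95% intervals; filled points passed the test and open ones did not. In clone 4 all intervals lie between -0.53 and 0.35; in clone 5 they lie between -0.44 and 0.44, and MAFG at 0.31 is the highest value.

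The size of change that the data allow was limited. Over the 9 genes the 95% intervals reached from -0.53 to 0.35 on the log2 scale in clone 4, at most a 1.28-fold rise and a 1.44-fold fall. In clone 5 they reached from -0.44 to 0.44, at most a 1.35-fold rise and a 1.36-fold fall. Each interval is for 1 gene, and the bounds given are the outermost over the 9.

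The difference between the ligand responses of the clones was tested as an interaction term. No gene of the 9 passed, beside 45 of all genes (0.302%), and DESeq2 and limma-voom called 0 as well. MAFG and SRXN1 had an unadjusted p under 0.05. Their clone 5 response minus the clone 4 response was 0.24 (95% interval 0.06 to 0.43, edgeR adjusted p = 0.404) for MAFG and -0.21 (-0.36 to -0.05, edgeR adjusted p = 0.39) for SRXN1. A different response of MAFG or SRXN1 in the clones was thus not shown, and equal responses were not shown either. NFE2L2 gave -0.15 (edgeR adjusted p = 0.667), and the remaining 6 genes had adjusted p-values in edgeR of 0.899 to 0.989.

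Averaged over both clones, a comparison that uses the same libraries as the responses within each clone, 2 of 9 genes were called (22.2%), 1 in each direction, beside 14.7% of all genes (6.65% higher and 8.03% lower). MAFG rose by 0.19 (95% interval 0.09 to 0.28, edgeR adjusted p = 0.0036). OSGIN1 fell by 0.24 on the log2 scale (-0.41 to -0.07, edgeR adjusted p = 0.0497), just inside the threshold, and kept its call in 3 of 17 alternative settings. The values of the others were -0.10 for NFE2L2, 0.14 for HMOX1, 0.06 for TXN, 0.05 for TXNRD1, -0.07 for SRXN1, -0.01 for NQO1 and 0.01 for KEAP1, with edgeR adjusted p-values of 0.139 to 0.928. TXNRD1 passed without replicate 3 of clone 5 with HyT36 (0.08, edgeR adjusted p = 0.0336).

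More of these genes differed between the clones than within either clone with ligand. Without ligand, HMOX1, NQO1 and NFE2L2 were lower in clone 5, and TXN, MAFG and SRXN1 were higher. In all, 6 of the 9 genes were called (66.7%), 3 in each direction, beside 55.5% of all genes (27.3% higher and 28.2% lower), so the share of the 9 was close to that of all genes. The median over the 9 was -0.03, beside 0.0017 over all genes. The vehicle libraries used here also serve as the reference of the ligand responses.

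HMOX1 differed the most: 12.7 ± 0.135 CPM in clone 4 against 4.47 ± 0.594 CPM in clone 5 (SD, n = 3), 2.83-fold lower in the fit (log2 fold change -1.50 ± 0.11, edgeR adjusted p = 3.57e-15). NQO1 had 58.5 ± 0.738 against 32.5 ± 0.909 CPM, 1.80-fold lower (-0.85 ± 0.05, edgeR adjusted p = 2.69e-17). NFE2L2, the gene of the factor that acts on both, had 46.2 ± 3.89 against 34.3 ± 2.06 CPM, 1.35-fold lower (-0.43 ± 0.06, edgeR adjusted p = 8.97e-08). For these 3 genes no clone 5 library reached the lowest clone 4 library of the same treatment. With HyT36 the ratio of clone 4 to clone 5 means was 2.89 for HMOX1, 1.88 for NQO1 and 1.50 for NFE2L2, beside 2.84, 1.80 and 1.35 with DMSO.

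On the other side, TXN had 145 ± 6.80 CPM in clone 4 and 172 ± 7.96 CPM in clone 5, 1.18-fold higher (0.24 ± 0.04, edgeR adjusted p = 2.51e-06). MAFG had 23.9 ± 0.319 against 27.3 ± 1.39 CPM (0.19 ± 0.07, edgeR adjusted p = 0.0109), and this call was lost without replicate 3 of clone 5 with DMSO (edgeR adjusted p = 0.0837). SRXN1 had 64.7 ± 3.70 against 71.1 ± 4.16 CPM (0.14 ± 0.05, edgeR adjusted p = 0.0296). The SRXN1 groups overlapped, whereas 59.8% of all genes had groups that did not overlap in this comparison. The SRXN1 call was lost with DESeq2 (DESeq2 adjusted p = 0.0567) and without replicate 1 of clone 4 with DMSO or replicate 1 or 2 of clone 5 with DMSO (edgeR adjusted p = 0.168, 0.0862 and 0.141). KEAP1 (-0.08 ± 0.04), TXNRD1 (0.01 ± 0.04) and OSGIN1 (-0.03 ± 0.12) did not pass (edgeR adjusted p = 0.134, 0.796 and 0.844). KEAP1 passed without replicate 1 of clone 4 with DMSO (edgeR adjusted p = 0.0116).

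**Figure D3:**
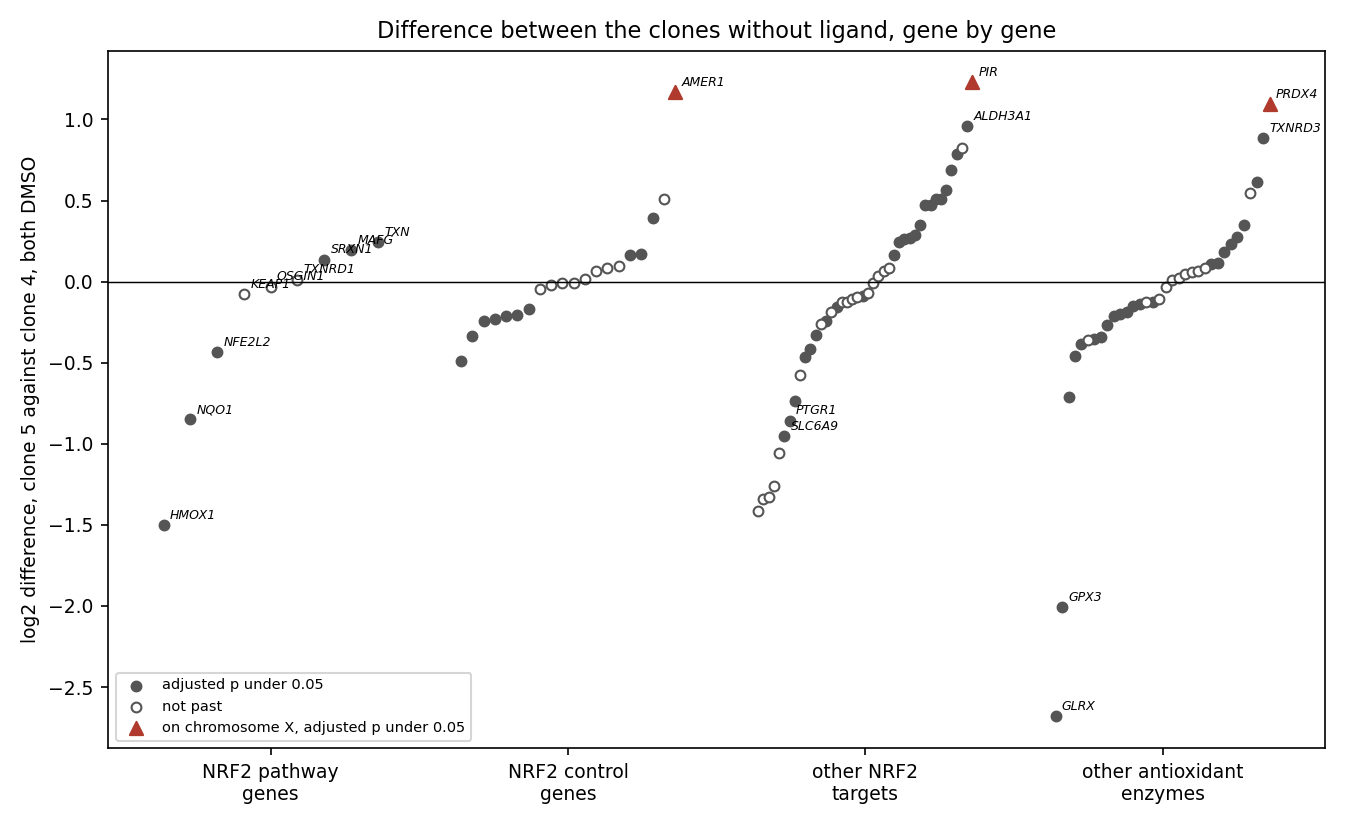
Log2 fold change between clone 5 and clone 4 without ligand, 1 point per gene, for the 9 genes and for the 3 wider lists described further on, each sorted by value; filled points passed the test, open ones did not, and triangles mark genes on chromosome X. Of the 9, HMOX1 at -1.50, NQO1 at -0.85 and NFE2L2 at -0.43 lie below 0, and TXN at 0.24, MAFG at 0.19 and SRXN1 at 0.14 lie above it.

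Clone 5 with DMSO had high epithelial sums in all 3 libraries and clone 4 with DMSO in replicate 1 alone. Among the high libraries alone, where the single clone 4 vehicle library was assumed to have the spread of the rest, the log2 fold changes were -1.51 for HMOX1, -0.83 for NQO1, -0.55 for NFE2L2 and 0.30 for TXN. That library, replicate 1, stood apart from replicates 2 and 3 of its group, as described under the processing. NFE2L2 was at 50.3 CPM in it, against 42.6 and 45.8 CPM in replicates 2 and 3. Over all libraries these values were -1.50, -0.85, -0.43 and 0.24. MAFG was at 0.19 in both fits and no longer passed among the high libraries.

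Whether neighbouring genes differed along with the 9 was described from RefSeq positions. Within 1 Mb on each side of HMOX1, 9 other genes were tested: 1 was higher in clone 5, 4 were lower, and their median log2 fold change was -0.23. APOL3, an apolipoprotein L gene named after its value was seen, was the neighbour lower than HMOX1, at -1.65. APOL1 and APOL6, also named after their values were seen, were at -1.46 and -1.21 and did not pass the test. Around NQO1, 27 genes were tested, 6 higher and 7 lower, with a median of -0.04. Around NFE2L2, 7 were tested, 1 higher and 2 lower, with a median of 0.04 and a range of -0.55 to 0.70. The 2 tested neighbours of TXN were both lower in clone 5 (-4.02 and -0.51), opposite to TXN. Around MAFG, 53 genes were tested, 10 higher and 14 lower. Over all genes, 55.5% were called in this comparison. HMOX1, NQO1 and NFE2L2 each had 1 neighbour below them. They were singled out as lower in clone 5, so a low place among their neighbours carries no further weight.

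**Figure D4:**
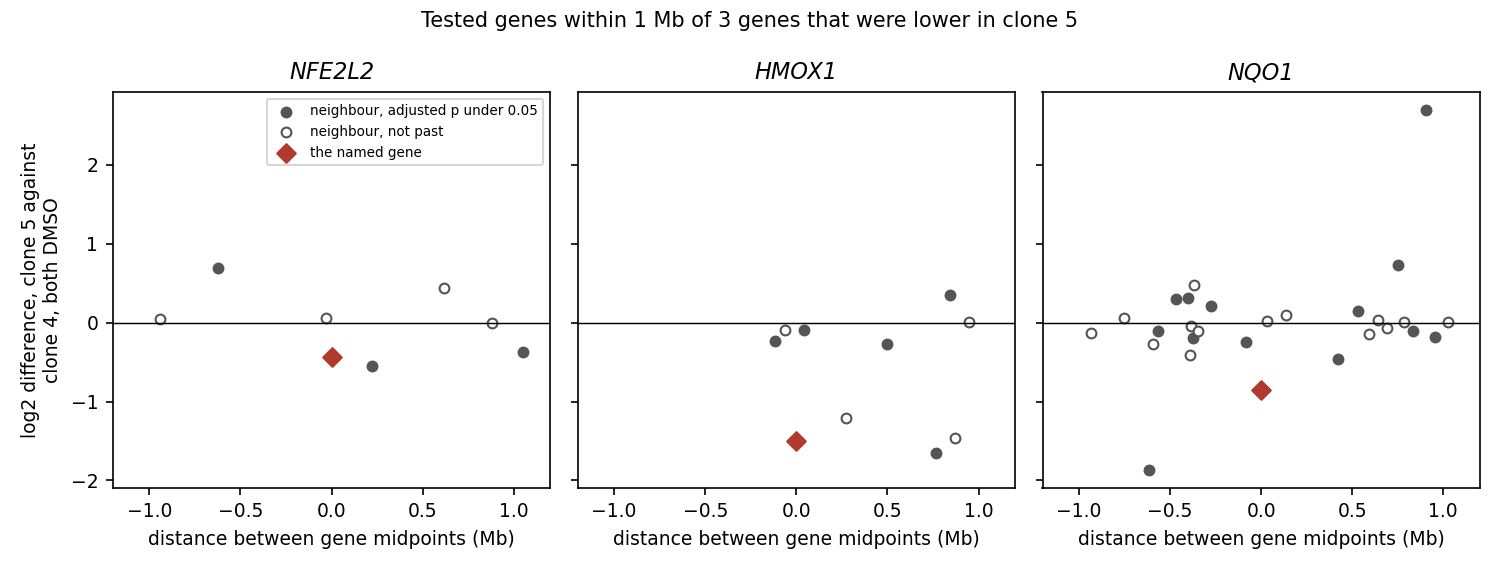
Log2 fold change between clone 5 and clone 4 without ligand for the tested genes within 1 Mb of NFE2L2, HMOX1 and NQO1, against the distance between gene midpoints in Mb; diamonds mark the named gene, filled points passed the test and open ones did not. HMOX1, NQO1 and NFE2L2 each have 1 neighbour lower than themselves.

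None of the 9 lies on chromosome X, where the clones differed as a block. Of 482 tested X-linked genes 409 (84.9%) were higher in clone 5 and 30 were lower, with a median of 0.90. Medians of the autosomes lay between -0.0746 and 0.0433. Other genes of the pathway do lie there: AMER1, PIR and PRDX4, X-linked genes of the 3 wider lists described next, were higher in clone 5. AMER1 is a scaffold that binds KEAP1, PIR is the NRF2 target pirin, and PRDX4 is the peroxiredoxin of the endoplasmic reticulum. Mean levels without ligand rose from clone 4 to clone 5 from 19.8 to 46.5 CPM for PIR and from 148 to 316 CPM for PRDX4.

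**Figure D5:**
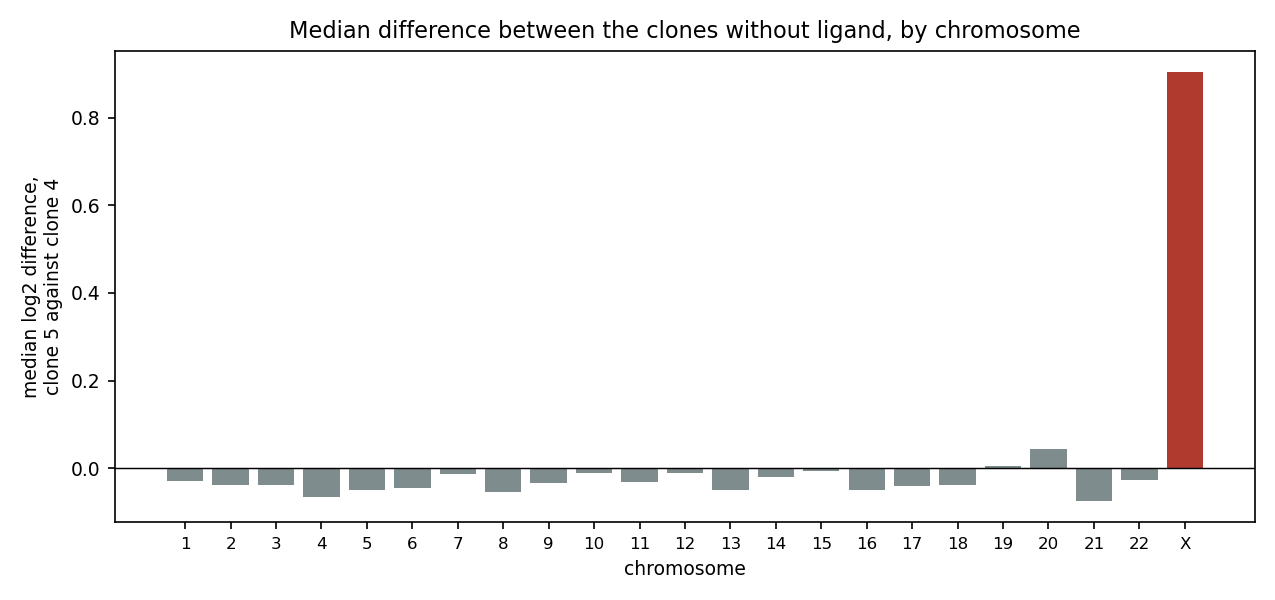
Median log2 fold change between clone 5 and clone 4 without ligand for the tested genes of each chromosome. Chromosome X stands at 0.90, and the autosomes lie between -0.0746 and 0.0433.

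The rest of the pathway was described from 3 wider lists: 21 genes that control NRF2 (20 tested, BACH2 not), 44 other NRF2 targets (43 tested, CBR3 not) and 36 other antioxidant enzymes (34 tested). The last list also held TXNIP, which inhibits thioredoxin, and the sestrins. Among the control genes 0 rose and 2 fell in clone 4 and 2 rose and 2 fell in clone 5, with medians of 0.03 and 0.05. These are 10% and 20% of the genes tested, beside 5.57% and 8.19% of all genes. Called in clone 4 were 1 to 3 when single libraries were left out (1 without replicate 3 with HyT36). More were called from the high epithelial libraries alone and fewer from the low ones, in fits with only 1 clone 4 library of a treatment. Called in clone 5 were 2 to 4, with 2 when any clone 5 library other than replicate 1 with HyT36 was left out. Those that fell were MAFK and AMER1 in both clones, AMER1 by 0.27 and 0.21 on the log2 scale (edgeR adjusted p = 0.00618 and 0.0133). Those that rose in clone 5 were CREBBP, a histone acetyltransferase that acts as an NRF2 coactivator (0.20, edgeR adjusted p = 0.0243), and GSK3B, a kinase that marks NRF2 for a KEAP1-independent ligase (0.16, edgeR adjusted p = 0.039). MAFK kept its call in both clones when each of the 12 libraries was left out in turn. AMER1 lost it in clone 4 without replicate 3 with HyT36 (edgeR adjusted p = 0.0904) and in clone 5 without replicate 2 or 3 with DMSO or replicate 3 with HyT36 (edgeR adjusted p = 0.0662, 0.123 and 0.196). CREBBP lost it when any 1 clone 5 library other than replicate 2 with DMSO was left out (edgeR adjusted p of 0.0785 to 0.124). GSK3B lost it without replicate 1 or 2 with DMSO or replicate 2 or 3 with HyT36 of clone 5 (edgeR adjusted p = 0.146, 0.18, 0.243 and 0.0707).

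Among the other targets 2 rose in clone 4 and 1 in clone 5, and none fell in either, with medians of 0.02 and 0.05. The shares called were 4.65% and 2.33%, below the 5.57% and 8.19% of all genes. The clone 4 count was 0, 1 and 1 without replicate 1, 2 or 3 with HyT36, and 4 without replicate 3 with DMSO. From the high epithelial libraries alone it was larger than in any of these settings, and from the low ones it was smaller than over all libraries. Either of those fits held only 1 clone 4 library of a treatment, so their counts are not given. The clone 5 count was 2 to 4 with DESeq2, limma-voom, no low-count filter or clone 5 fitted alone. It was 6 without replicate 1 of clone 4 with DMSO and 2 without replicate 2 of clone 4 with DMSO, replicate 1 of clone 4 with HyT36 or replicate 1 or 2 of clone 5 with HyT36. SLC7A11, the cystine importer that feeds glutathione synthesis, rose in both: from 47.8, 45.1 and 45.0 to 56.0, 51.8 and 52.6 CPM in clone 4, and from 33.8, 34.9 and 34.4 to 37.4, 40.5 and 42.3 CPM in clone 5. No ligand library fell within the vehicle range of its clone. The log2 fold change was 0.22 in either clone (edgeR adjusted p = 0.0089 and 0.00903). GCLM, the modifier subunit of the enzyme that starts glutathione synthesis, rose in clone 4 (0.23, edgeR adjusted p = 0.0181), from 34.6, 32.5 and 34.7 to 39.4, 40.1 and 39.5 CPM. In clone 5 GCLM was at 0.05 (edgeR adjusted p = 0.698), and the difference between the clones did not pass (edgeR adjusted p = 0.635). The SLC7A11 call was lost in clone 4 without replicate 1 with HyT36 (edgeR adjusted p = 0.0847) and in clone 5 without replicate 3 with HyT36 (edgeR adjusted p = 0.0608). Over all settings tried, its clone 4 value ranged from 0.13, among the high epithelial libraries alone, to 0.32. That of GCLM was 0.23 among the low and 0.20 among the high epithelial libraries. The GCLM call was lost without replicate 2 of clone 4 with DMSO or any of the 3 clone 4 libraries with HyT36 (edgeR adjusted p of 0.0508 to 0.0826). Over both clones 7 targets rose and 2 fell, 20.9% of those tested beside 14.7% of all genes. Leaving out single libraries gave 4 to 12 called, with 5, 4 and 5 without replicate 2 of clone 4 with HyT36 or replicate 2 or 3 of clone 5 with DMSO. Besides SLC7A11 and GCLM, the risers were GSR, which reduces glutathione, and ME1, PGD, TALDO1 and TKT of NADPH and pentose phosphate metabolism, by 0.08 to 0.09, and the fallers were RIT1 (-0.18) and TSKU (-0.19). Without replicate 2 of clone 5 with DMSO the 4 called targets were SLC7A11, PGD, RIT1 and TSKU. GCLM, GSR, ME1, TALDO1 and TKT thus lost their calls in that setting. The PGD call was lost without replicate 3 of clone 5 with DMSO or replicate 1 of clone 5 with HyT36 (edgeR adjusted p = 0.0524 and 0.0554), and that of RIT1 without replicate 3 of either clone with HyT36 (edgeR adjusted p = 0.0695 and 0.0618).

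In the list of other antioxidant enzymes 2 genes rose in clone 4 and 1 fell in clone 5, with medians of 0.02 in either. The 1 that fell was TXNIP, an inhibitor of thioredoxin rather than an enzyme. The shares called were 5.88% and 2.94%, beside 5.57% and 8.19% of all genes. The clone 4 count was 1 without replicate 3 with HyT36, and 4 without replicate 2 with DMSO or with no low-count filter. From the high epithelial libraries alone, with only 1 clone 4 library with DMSO, it was larger than in any of these settings. SESN2, a sestrin that restrains mTORC1 under stress, went from 34.3, 45.2 and 35.2 to 67.1, 65.8 and 65.1 CPM in clone 4 (0.79, edgeR adjusted p = 2.03e-04) and was at 42.6, 50.9 and 45.4 against 49.4, 49.5 and 46.6 CPM in clone 5. NXN, a thioredoxin family reductase, rose in clone 4 (0.17, edgeR adjusted p = 0.00788), a call lost without replicate 3 with DMSO or replicate 3 with HyT36 (edgeR adjusted p = 0.0508 and 0.0717). Over all settings tried, the NXN value ranged from 0.115, among the low epithelial libraries alone, to 0.239. TXNIP, which binds and inhibits thioredoxin, fell in clone 5 from 28.1, 23.1 and 23.9 to 3.60, 3.43 and 3.31 CPM (-2.86, edgeR adjusted p = 0.00658). TXNIP also moved with the epithelial split in clone 4: it was 11.8, 12.4 and 6.78 CPM in the 3 low libraries and 27.2, 15.8 and 15.7 CPM in the 3 high ones. In clone 5 the split and the treatment cannot be told apart for it. Of the 3 lists, SESN2 alone was past the threshold for the interaction term in the edgeR fit of all 12 libraries. DESeq2, and edgeR without replicate 1 of clone 4 with DMSO, called 2 antioxidant enzymes, and 1 other target was called with no low-count filter or without replicate 3 of clone 4 with DMSO. SESN2 itself lost its call without any 1 of 8 libraries (edgeR adjusted p of 0.0518 to 0.186).

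Between the clones without ligand, 4 control genes were higher in clone 5 and 7 lower, 16 other targets were higher and 9 lower, and 9 other antioxidant enzymes were higher and 14 lower. The shares called were 55%, 58.1% and 67.6%, near the 55.5% of all genes, and the medians were -0.01, -0.07 and -0.07. CUL3, the scaffold of the ligase that KEAP1 serves, was lower (-0.23, edgeR adjusted p = 1.75e-05), as was USP15, a deubiquitinase that acts on KEAP1 (-0.34, edgeR adjusted p = 3.65e-08). NFE2L3, a relative of NFE2L2, was higher (0.39, edgeR adjusted p = 8.73e-07). GSTA4, a glutathione transferase, was higher (0.69) and SLC6A9, a glycine transporter, lower (-0.95), with edgeR adjusted p = 3.98e-15 and 6.95e-13. Glutathione peroxidase GPX3 fell from 26.6 ± 1.30 to 6.60 ± 0.445 CPM (-2.01, edgeR adjusted p = 2.8e-22), and glutaredoxin GLRX from 6.90 ± 1.61 to 1.07 ± 0.344 CPM (-2.68, edgeR adjusted p = 3.67e-14). SLC7A11, which rose with ligand in both clones, was lower in clone 5 without it (-0.42, edgeR adjusted p = 3.43e-08).

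The genes with the most similar pattern over the 12 libraries were taken as those with the smallest root mean square difference in log2 CPM, each gene centred on its own mean, among 11519 genes. For HMOX1, whose own spread about its mean was 0.770, they were TMEM59L, RAP1GAP2 and ZNF276 (0.106, 0.116 and 0.124). For NQO1 (own spread 0.442) they were FADS1, KTN1 and NCAPH (0.0391, 0.0513 and 0.0558). NFE2L2 (0.2695) was most like GAS5, GASK1B and AGPAT5 (0.0538, 0.062 and 0.0629), and TXN (0.122) most like BRD7, RCC2 and DMWD (0.0385, 0.0418 and 0.0425). MAFG (0.199) was nearest to ZBTB44, SECISBP2L and GNE (0.0575, 0.0576 and 0.0642). SRXN1 (0.0937) was nearest to METTL15, CMTM3 and RPS27L (0.0569, 0.0622 and 0.0646), and OSGIN1 (0.168) to TMBIM1, ZNF581 and CHPF2 (0.0818, 0.0847 and 0.0961). None of the 9 genes and none of the genes of the wider lists stood among them. All 12 libraries entered, so this likeness includes the difference between the clones.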

How the data were processed

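Bulk RNA was measured in 12 libraries of HEK293 cells, 3 in each of 4 groups, for which a service selected polyA RNA and used NEBNext Ultra II, per the labels' protocols. The authors deposited 1 table of raw counts per gene, not normalized, per the file headers. The submitters' processing notes name GRCh38 and Cell Ranger 7 without saying what they were used for; not given in the sources used here are aligner, annotation and strand. Library sizes and tests used gene rows alone, without 4 summary entries and 22344 guide features. Gene counts made up 82.4 to 83.9% of a library.

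The test of counts was that of edgeR 4.0.16 (R 4.3.3): filterByExpr by group, TMM scaling, 1 robust quasi-likelihood fit over the 12 libraries with a mean per group, two-sided F-tests for 5 comparisons and Benjamini-Hochberg adjustment over 14892 genes, with a threshold of 0.05. A prior count of 0.125 enters the fitted fold changes. SEs are approximate: the size of the log2 value over the root of its F. DESeq2 1.42.0, limma-voom (limma 3.58.1), other scaling, no low-count filter, each clone alone, the epithelial split, a replicate block and leaving out each library were alternatives. The code was tested on simulated data. For a simulated clone 4 response it recovered 46% of 1.25-fold, 70% of 1.5-fold and 88% of 4-fold changes. Of the calls made there, 7.28% were false. Chi-square per degree of freedom between libraries of a group was 1.955 to 8.713, so none looked deposited a second time. Pairs with replicate 1 of clone 4 with DMSO gave 8.713 and 7.466, and all other pairs 4.807 or less. The listed target AKR1C1, chosen after its value was seen, had 31.2 CPM in that library and 8.90 and 6.32 CPM in replicates 2 and 3. NQO1 had 57.8, 58.4 and 59.3 CPM in the same order.

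All 9 genes are described. From each of 3 wider lists and each comparison, up to 4 called genes with the smallest p were named, and for each of the 9 called anywhere the 3 genes most alike whose mean log2 CPM reached 1 (prior count of 2). Others, among them GSR, ME1, TALDO1, TKT, MAFF and APOL3, were chosen after their values were seen. Some genes that the lists and the rule name are not reported here or plotted. Members and lists were chosen with earlier results of these data known. Positions and promoters are from RefSeq on GRCh38.p14, matched by symbol.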

Additional observations from a re-analysis of the deposited data

Results flagged for a closer look

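SESN2, a sestrin that is also a known target of stress-activated transcription, was the 1 gene of the 9 and the 3 wider lists whose ligand response differed between the clones by the interaction test in the edgeR fit of all 12 libraries. Its mean rose from 38.2 ± 6.05 to 66.0 ± 1.04 CPM in clone 4 (SD, n = 3) and went from 46.3 ± 4.21 to 48.5 ± 1.64 CPM in clone 5. Subtracting the response of clone 4 from that of clone 5 gave -0.72 on the log2 scale (95% interval -1.002 to -0.44, edgeR adjusted p = 0.0436).
The call was lost without any 1 of 8 libraries: replicate 3 of either clone with DMSO or any of the 6 libraries with HyT36, with adjusted p-values in edgeR of 0.0518 to 0.186 and log2 values of -0.74 to -0.66.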

How the results depend on the processing

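For the 9 genes no log2 fold change that passed the test in the edgeR fit of all 12 libraries changed sign in another setting. Some values that did not pass in that fit changed sign. In clone 4 NFE2L2 ranged from -0.16 to 0.09, KEAP1 from -0.09 to 0.10 and SRXN1 from -0.06 to 0.15. Between the clones without ligand KEAP1 ranged from -0.13 to 0.03. In clone 5 the count of the 9 genes called was 2 and became 1 with DESeq2, which lost SRXN1. This count ranged from 1 to 3 when single libraries were left out. Averaged over both clones it was 2, became 1 with DESeq2, RLE size factors, no low-count filter or the replicate block, each of which lost OSGIN1 (adjusted p = 0.0943, 0.0574, 0.0737 and 0.058 in DESeq2 or edgeR), and was 1 to 2 without single libraries. It stayed at 0 in clone 4 and for the difference of responses in every setting tried, and at 5 to 6 between the clones without single libraries. The rise of MAFG in clone 5 held in 18 of 18 settings (0.28 to 0.36), as did the clone differences of HMOX1, NQO1, NFE2L2 and TXN. None of these settings separated the treatment from the epithelial split in clone 5. Among all genes, 830 were called in clone 4, 287 from the low and 1178 from the high epithelial libraries alone, and 410 to 851 without single libraries, the lowest without replicate 3 with HyT36. Clone 5 gave 1219, and 756 to 1618 without single libraries, the lowest without replicate 1 with DMSO. The difference of responses gave 45, 169 with no low-count filter and 25 to 140 without single libraries; the cause of these shifts in counts was not tested. DESeq2 moved the share of higher genes among those called from 39.6% to 48.7% in clone 4 and from 40.9% to 50.9% in clone 5; RLE size factors within edgeR gave 42.1% and 48.8%. With the replicate number as a block, 715, 1083, 43 and 1970 genes were called in clone 4, clone 5, the difference and the mean, and of the genes named the block also lost GSK3B in clone 5 (edgeR adjusted p = 0.0584). Same-numbered libraries correlated at -0.541 to 0.162 (2 of 18 pairs over 0.1), so the numbers were not taken to pair samples. Depth limits HMOX1 and OSGIN1 most, with 92 to 392 and 135 to 209 reads per library.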
